A study of Mus musculus with 24 samples.

Results

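The course of the megalin-deficient kidney on a Western diet was followed by comparing 6 knockout libraries made after 12 weeks of feeding with 6 made after 2 weeks. These 12 libraries, chosen by their titles, are 12 of the 24 bulk RNA-sequencing libraries of the series. The remaining 12 are from wild-type mice on the same diet for the same times, 6 per duration, and serve here as the reference for changes that both genotypes share. Knockout mice carried -/- and wild-type mice +/+ at the locus that the labels write as PTC LRP2-SM22. The series title places the Lrp2 deletion in proximal tubule cells, while the labels explain neither SM22 nor the Cre driver. All groups ate the Western diet, so none shows the kidney without it. The labels give no strain, age or sex and do not say whether every library is a separate mouse, so p-values measure the spread between these samples. The 12-week mice had 10 more weeks of diet, and their libraries also differ from the 2-week libraries in sequencing depth and in genes that depend on how reads were counted. Duration, age and batch therefore cannot be told apart in either genotype. The samples are whole kidney, in which fewer cells of a type and less RNA per cell cannot be told apart.

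Megalin, the product of Lrp2, is a large receptor on the brush border of proximal tubule cells that retrieves filtered proteins, vitamin carriers and hormones for breakdown in lysosomes. Injured proximal tubule cells lose transport functions and switch on genes for secreted and surface proteins such as osteopontin (Spp1), lipocalin 2 (Lcn2) and KIM-1 (Havcr1), and cells that do not recover can keep an inflammatory program. Tubulointerstitial nephritis is an inflammation of the tubules and the space between them, in which T cells, B cells and macrophages gather and fibroblasts may lay down matrix.

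Levels are in CPM, read counts per 1000000 of the TMM-scaled library. Changes are log2 fold changes, 12 minus 2 weeks, with their standard error (SE), and a gene is said to rise or fall where edgeR's quasi-likelihood test gave a Benjamini-Hochberg adjusted p under 0.05 over all 17286 tested genes. Counts of genes refer to the 9250 tested protein-coding genes with no annotated gene on the opposite strand across their exons. Lrp2 itself, the deleted gene, was measured at 192 to 584 CPM in the knockout at 2 weeks and 186 to 389.7 CPM at 12 weeks, against 1588 to 2289 and 1409.9 to 2503 CPM in wild type. Every knockout library thus lay under every wild-type library, and the knockout level did not pass the test between durations (a log2 change of -0.13 with an SE of 0.21 and an edgeR adjusted p of 0.676). The labels do not say which exons were removed, so reads from exons outside the deletion may be among these counts.

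The knockout libraries held 16312621 to 25184468 counts at 2 weeks and 11327983 to 15236159 at 12 weeks. Mitochondrial genes took 5.56% to 10.1% of the counts at 2 weeks and 9.31% to 11.9% at 12 weeks. The predicted gene Gm42418 had 0 counts in all libraries at 2 weeks and 71635 to 424892 in the knockout libraries at 12 weeks. Ddx3y, a Y-linked gene, ran from 69.8 to 95.7 and from 82.6 to 93.3 CPM, so it was present in all 12. Of protein-coding genes with an opposite-strand gene over part of their exons 37.4% were called in the knockout, against 29.7% of those without one. Among noncoding genes 50.2% were called with an opposite-strand gene and 32.6% without. Genes with an opposite-strand gene are therefore not counted or named. Among the knockout libraries, replicate 2 at 12 weeks stood apart: it was the highest on the first principal component, at 66.8 against 25.1 to 53.8 for the other 5, and it held by far the most lymphocyte transcripts. Where a count of list members below moves by over 1.5 times without it, both counts are given.

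Between 2 and 12 weeks, 2749 of the 9250 genes changed in the knockout kidney (29.7%). Of these, 1280 rose (13.8%) and 1469 fell (15.9%). A log2 change of at least 1 in size was seen in 308 that rose (3.33%) and 136 that fell (1.47%), and in wild type in 131 (1.42%) and 176 (1.9%). The median over all 9250 genes was -0.02 on the log2 scale in the knockout and 0.01 in wild type. The 2 groups did not overlap for 864 genes (9.34%). The 12-week libraries all lay above the 2-week libraries for 331 genes (3.58%) and all below for 533 (5.76%). In wild type 2339 genes changed over the same interval (25.3%), 1091 upwards (11.8%) and 1248 downwards (13.5%). Of the genes that rose in the knockout, 586 also rose in wild type (6.34% of all), and of those that fell 723 also fell there (7.82%). Opposite directions were called for 2 genes that rose (0.0216%) and 4 that fell (0.0432%) in the knockout. A further 692 rose (7.48%) and 742 fell (8.02%) in the knockout without passing the test in wild type, which does not show that the genotypes differed. Tested directly, the change differed between genotypes for 11 genes (0.119%), with a more positive change in the knockout for 6 (0.0649%) and a more negative one for 5 (0.0541%), of which 3 (0.0324%) and 1 (0.0108%) differed by at least 1 on the log2 scale. At an unadjusted p under 0.05 the same test gave 1013 genes (10.95%).

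**Figure D1:**
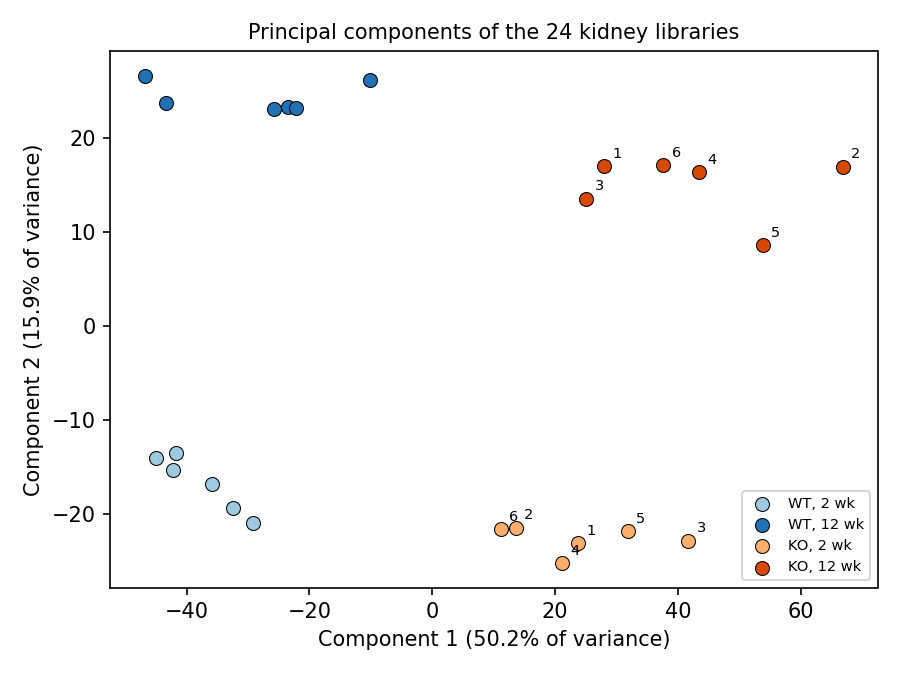
Each point is 1 library placed on the first 2 principal components of log2 CPM over the 9250 genes, with the variance share of each component on its axis and knockout replicate numbers beside the points. Component 1 (50.2%) separates knockout from wild type, component 2 (15.9%) separates 12 from 2 weeks in both genotypes, and knockout replicate 2 at 12 weeks lies farthest right.

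Genes of tubular injury were lower at 12 than at 2 weeks in the knockout. Of 28 listed genes 22 could be tested, and of these 12 fell and 1 rose, with a median log2 change of -0.54 beside -0.02 over all genes. Without replicate 2 at 12 weeks 10 fell. In wild type 4 fell and 2 rose (median -0.06), and no member passed the test of the difference between genotypes. Lists here were chosen with earlier results of these samples known, so their direction is no independent evidence. Counts of list members in the knockout stand beside 13.8% of all 9250 genes that rose and 15.9% that fell.

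Osteopontin (Spp1, chr5:104435118-104441050 on mm10) is the secreted matrix protein that injured tubules make in quantity. Its level was 4588, 9245 and 10079 CPM (lowest, median, highest) at 2 weeks and 2053, 2329 and 4846 CPM at 12 weeks in the knockout. The lowest 2-week library, replicate 6, fell just below the highest 12-week library, so the groups overlapped by that pair only. The change was -1.57 (SE 0.19, 2.97-fold lower, edgeR adjusted p = 3.24e-07). At 12 weeks every knockout library was still above all wild-type libraries, which ran from 389 to 565 CPM at 2 weeks and 302 to 406 CPM at 12 weeks. Clusterin (Clu), a secreted chaperone made by injured tubules, went from 835, 1112 and 1397 CPM to 364, 458 and 678 CPM, with no overlap (-1.13, SE 0.15, edgeR adjusted p = 1.32e-06). Lipocalin 2 (Lcn2), an iron-siderophore carrier used as a urinary injury marker, measured 85.3, 155 and 227 CPM at 2 weeks and 58.9, 66.0 and 125 CPM at 12 weeks. These groups overlapped, and the change passed the test (-0.95, SE 0.23, edgeR adjusted p = 0.00315). All Lcn2 values in wild type lay at or under 2.80 CPM.

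KIM-1 (Havcr1), a phosphatidylserine receptor that appears on injured proximal tubule cells, ran from 168 to 350.3 CPM (median 274) at 2 weeks and from 48.5 to 185 CPM (median 75.5) at 12 weeks. The groups overlapped, and the call was narrow: -1.53 with an SE of 0.55 (edgeR adjusted p = 0.0378), and -1.42 with an adjusted p of 0.0729 without replicate 2 at 12 weeks. It was also lost without replicates 1, 4 or 6 at 12 weeks or 1, 3 or 4 at 2 weeks. In wild type Havcr1 was far lower and fell too (-2.37, SE 0.67, edgeR adjusted p = 0.0109). Keratin 20 (Krt20), a filament protein of injured tubule cells, was 6.72 to 14.9 CPM at 2 weeks and 3.07 to 5.99 CPM at 12 weeks, without overlap (-1.28, SE 0.30, edgeR adjusted p = 0.00144). Sox9, a transcription factor of regenerating tubule cells, had a median of 9.96 CPM at 2 weeks and 3.83 CPM at 12 weeks (-1.33, SE 0.26, edgeR adjusted p = 0.000281). Only 2-week replicate 6, at 4.71 CPM, reached into the 12-week range. Sprr2f, a cornified envelope protein that stressed epithelia make, whose near-identical family members can share reads, was 2.11 to 4.27 CPM at 2 weeks and 0.242 to 1.12 CPM at 12 weeks (-1.87, SE 0.32, edgeR adjusted p = 9.19e-05).

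The exception among the injury genes was vimentin (Vim), the intermediate filament of mesenchymal and dedifferentiated cells, named here after its value was seen. It rose from 55.8, 73.8 and 104 CPM to 81.5, 129 and 194 CPM, with overlapping groups (0.78, SE 0.19, edgeR adjusted p = 0.00271). Fibroblasts, endothelium and leukocytes also express it.

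**Figure D2:**
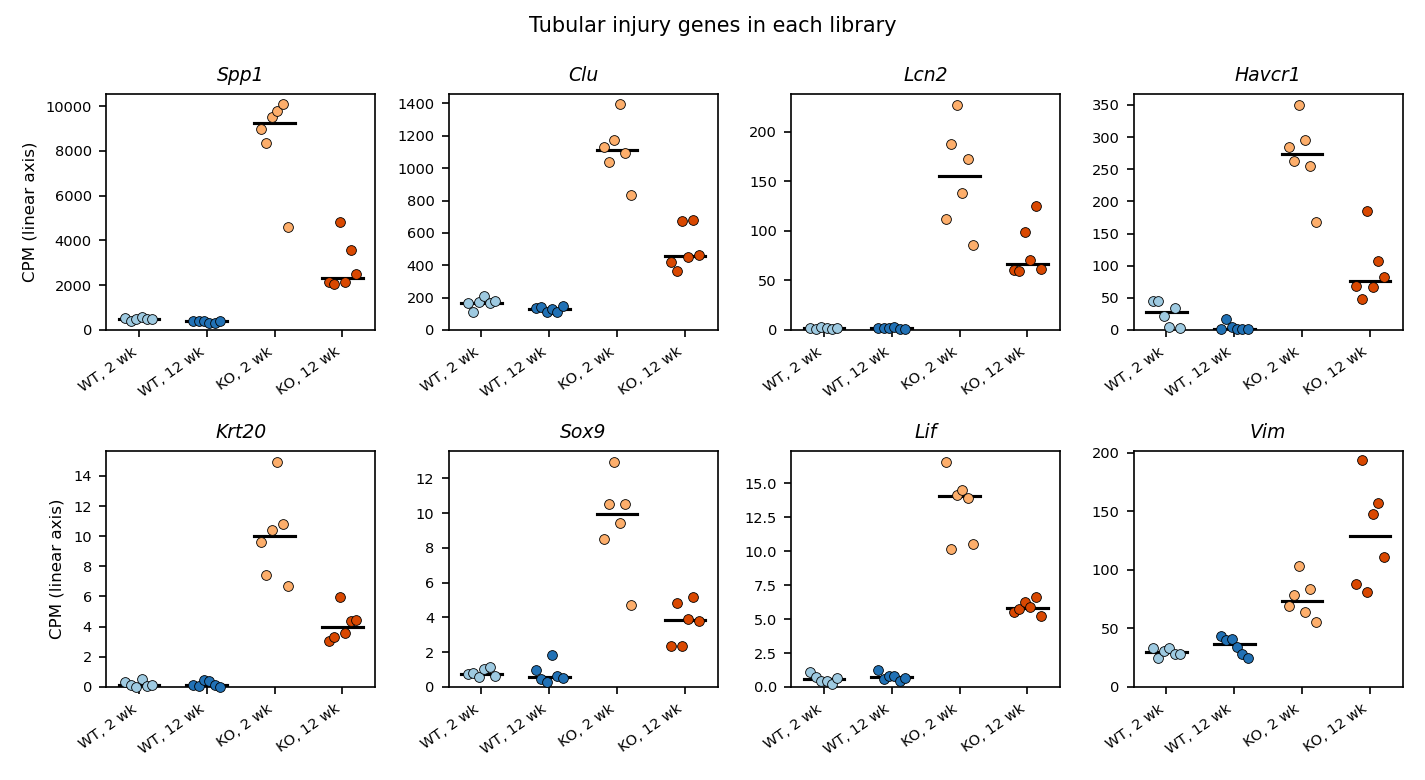
Each point is the CPM of 1 library on a linear axis and each bar the median of 6, for 8 genes in the 4 groups. Spp1, Clu, Lcn2, Havcr1, Krt20, Sox9 and Lif are lower at 12 than at 2 weeks in the knockout but stay above the wild-type medians, while Vim is higher at 12 weeks.

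Promoters of 3 genes that fell together, Lcn2, Sprr2f and the cytokine gene Lif, are shown because AP-1 and NF-kappa B are transcription factors known to switch on injury and inflammation genes. The sequences are the 250 bases before the RefSeq start (GRCm38.p6), with AP-1 letters (TGANTCA) and NF-kappa B letters (GGGANNNNCC), searched on both strands, in capitals. Lif lies at chr11:4257318-4257567 (+), Sprr2f at chr3:92364937-92365186 (+) and Lcn2 at chr2:32387740-32387989 (-).
Lif: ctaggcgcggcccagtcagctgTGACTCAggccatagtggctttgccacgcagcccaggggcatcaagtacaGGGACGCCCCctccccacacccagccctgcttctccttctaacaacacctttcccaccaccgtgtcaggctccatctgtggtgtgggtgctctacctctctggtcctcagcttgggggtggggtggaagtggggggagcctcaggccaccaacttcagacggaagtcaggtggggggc
Sprr2f: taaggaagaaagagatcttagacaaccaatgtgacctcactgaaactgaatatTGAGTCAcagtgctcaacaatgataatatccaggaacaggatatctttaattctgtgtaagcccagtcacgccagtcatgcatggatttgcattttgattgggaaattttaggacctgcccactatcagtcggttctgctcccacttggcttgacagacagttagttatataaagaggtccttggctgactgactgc
Lcn2: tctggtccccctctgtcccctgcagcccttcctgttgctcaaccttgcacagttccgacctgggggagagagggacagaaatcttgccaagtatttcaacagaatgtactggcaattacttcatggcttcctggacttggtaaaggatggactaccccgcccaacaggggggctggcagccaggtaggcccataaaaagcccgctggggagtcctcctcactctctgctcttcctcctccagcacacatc
The AP-1 letters begin 228 bases before the start in Lif and 197 bases before it in Sprr2f, and the NF-kappa B letters 178 bases before it in Lif. Lcn2 holds neither in this window. Of all 32851 such windows 6.75% hold the AP-1 letters and 17.6% the NF-kappa B letters. Of the 9025 windows of the tested genes counted here 4.997% and 22.9% do. A match describes letters, not binding.

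Of 18 tested genes out of 28 linked to failed repair, the state in which injured tubule cells stay inflammatory, 4 rose and 2 fell in the knockout (median 0.12), beside 13.8% and 15.9% of all 9250 genes, and 5 rose and 1 fell in wild type. The gene of the cytokine LIF, a signal through gp130 and STAT3, fell from between 10.1 and 16.6 CPM to between 5.22 and 6.66 CPM (-1.18, SE 0.19, edgeR adjusted p = 2.14e-05). All 6 libraries at 12 weeks lay under all 6 at 2 weeks. Itgb6, the integrin subunit that helps release active TGF-beta on epithelium, fell without overlap from a median of 123 to 65.2 CPM (-0.95, SE 0.15, edgeR adjusted p = 3.53e-05). Nfkb1, a subunit of NF-kappa B, rose from a median of 54.3 to 72.4 CPM (0.35, SE 0.09, edgeR adjusted p = 0.00222), and Dock10, a guanine exchange factor also expressed in lymphocytes, from 33.0 to 47.4 CPM (0.68, SE 0.16, edgeR adjusted p = 0.00245). None of 25 tested cell cycle genes changed in the knockout by edgeR's test, and 0 had an unadjusted p under 0.05. DESeq2 called 0 as well, and edgeR called 1 that fell without replicate 2 or 5 at 12 weeks. The proliferation marker Mki67 ran from 14.4 to 28.5 CPM at 2 weeks and from 13.5 to 53.5 CPM at 12 weeks, where replicate 2 was the highest (0.26, SE 0.27, and -0.13 without it).

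Several genes of the endocytic pathway that megalin serves were modestly lower at 12 weeks. Of 7 tested genes of tubular endocytosis 4 fell and 0 rose in the knockout, against 1 that fell in wild type. None of the 7 passed the test of the difference between genotypes. Cystinosin (Ctns), the lysosomal cystine exporter, fell from a median of 30.1 CPM at 2 weeks to 23.7 CPM at 12 weeks (-0.37, SE 0.06, edgeR adjusted p = 4.6e-05). Rab11a, a GTPase of recycling endosomes, fell by 0.32 on the log2 scale (SE 0.07), amnionless (Amn), which carries cubilin to the membrane, by 0.35 (SE 0.10), and Clcn5, the endosomal chloride-proton exchanger mutated in Dent disease, by 0.34 (SE 0.12). Their edgeR adjusted p were 0.000501, 0.00856 and 0.0224. Of 16 tested lysosome and autophagy genes 7 fell and 0 rose, among them cathepsin D (Ctsd), from a median of 487 to 335 CPM, legumain (Lgmn), from 669.8 to 395 CPM, and Atg7, needed to form autophagosomes, from 25.5 to 15.4 CPM. All 3 fell without overlap, with edgeR adjusted p of 8.16e-06, 0.000199 and 3.26e-05. In wild type 3 of these 16 fell and 2 rose, and none passed the test of the difference between genotypes.

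Of 17 tested proximal tubule transporters 6 fell and 1 rose in the knockout, and 3 fell and 1 rose in wild type. The sodium-glucose cotransporter Slc5a1 fell from between 82.4 and 105 CPM to between 50.2 and 77.8 CPM (-0.64, SE 0.09, edgeR adjusted p = 5.76e-06), with a like value in wild type (-0.56, SE 0.10). The organic cation transporter Slc22a2 fell from a median of 268 to 200.5 CPM, also without overlap (-0.47, SE 0.09, edgeR adjusted p = 0.000325). The organic anion transporter Slc22a6 measured 496 to 792 CPM at 2 weeks and 532 to 755 CPM at 12 weeks and did not pass the test (edgeR adjusted p = 0.833). In the last segment of the proximal tubule, S3, 2 of 11 tested genes rose and 2 fell, near the 13.8% and 15.9% of all 9250 genes. Slc38a3, a glutamine transporter, rose from between 64.6 and 99.0 CPM to between 107 and 184 CPM (0.74, SE 0.18, edgeR adjusted p = 0.00232), and the nicotinate and urate transporter Slc22a13 rose by a log2 change of 0.57 (SE 0.12). The organic anion transporter Slc22a7 fell (-0.75, SE 0.25, edgeR adjusted p = 0.0255), but its call was lost without replicate 2 (adjusted p = 0.0567) or 4 at 12 weeks. Without replicate 2 none of the 11 S3 genes fell.

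T cell genes rose in the knockout while the injury genes fell. Of 19 tested T and NK cell genes out of 30, 14 rose and none fell by edgeR's test (median 1.42), against 2 that rose in wild type (median 0.60). Without replicate 2 at 12 weeks 9 rose (median 0.98). None passed the test of the difference between genotypes. The summed level of the 19 genes was 24.2, 29.9 and 45.6 CPM at 2 weeks. At 12 weeks it was 203 CPM in replicate 2 and 46.3 to 75.6 CPM in the other 5. All 6 libraries thus exceeded the highest 2-week library, the lowest of them by a narrow margin.

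Il7r, the interleukin 7 receptor that keeps T cells alive, rose from 1.13, 1.55 and 4.66 CPM to 5.58, 7.91 and 19.6 CPM (2.02, SE 0.35, edgeR adjusted p = 7.68e-05). The groups did not overlap, and without replicate 2 the change was 1.67 (adjusted p = 0.000224). Il7r also rose in wild type, from between 0.195 and 0.738 CPM to between 0.620 and 2.15 CPM (1.40, SE 0.46, edgeR adjusted p = 0.0222). Cd6, a costimulatory receptor of T cells, rose from a median of 1.45 to 4.06 CPM (1.81, SE 0.34, edgeR adjusted p = 0.000160). Cd5, which dampens receptor signaling, rose from 1.29 to 3.61 CPM (1.83, SE 0.36, edgeR adjusted p = 0.000226), and the adhesion molecule Cd2 from 0.747 to 3.18 CPM (2.46, SE 0.46, edgeR adjusted p = 0.000168). Without replicate 2 these 3 changes were 1.28, 1.30 and 1.67, each still past the threshold. The chemokine Ccl5, made by activated T cells, measured 2.43 to 5.06 CPM at 2 weeks and 3.99 to 11.6 CPM at 12 weeks and did not pass (edgeR adjusted p = 0.0943).

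B cell genes were high in 1 library. Of 12 tested genes out of 28, 7 rose in the knockout (median 1.59) and 0 in wild type, but without replicate 2 at 12 weeks none rose and 1 fell (median 0.38). None of the 12 passed the test of the difference between genotypes. Cd79a, the signaling chain of the B cell receptor, was 0.504 to 1.31 CPM at 2 weeks. At 12 weeks replicate 2 held 40.5 CPM and replicates 1, 3, 4, 5 and 6 held 3.97, 0.492, 2.57, 2.65 and 2.10 CPM. All but replicate 3 lay above every 2-week library. The log2 change of 3.18 (SE 0.87, edgeR adjusted p = 0.00764) became 1.31 without that library (adjusted p = 0.108). The kinase Blk gave 1.84 with it and 0.88 without it (edgeR adjusted p = 0.00622 and 0.0808), and the IgM receptor Fcmr 2.04 and 0.92 (0.00702 and 0.123). Jchain, which joins secreted IgA and IgM in plasma cells, ran from 43.9 to 300.4 CPM at 2 weeks and from 53.2 to 1106 CPM at 12 weeks and did not pass the test (edgeR adjusted p = 0.0793). It passed without replicate 3 at 12 weeks (1.62, adjusted p = 0.0349) or replicate 3 at 2 weeks (1.89, adjusted p = 0.0224). Ltb, the lymphotoxin subunit that organizes lymphoid tissue, rose from a median of 3.52 to 9.77 CPM (1.68, SE 0.40, edgeR adjusted p = 0.00212) and by 1.15 without replicate 2 (adjusted p = 0.00891).

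Markers of fat cells also differed between these groups, and their part in the lymphocyte results was not tested. Of 9 tested adipocyte genes out of 14, 5 rose in the knockout (median 2.42) and 0 in wild type (median -1.98), where none fell by edgeR's test. None passed the test of the difference between genotypes (median 5.34), in which 7 had an unadjusted p under 0.05. The summed level of the 9 genes in wild type was 163 to 321 CPM at 2 weeks and 178 to 231 CPM at 12 weeks. In the knockout it was 125 to 178 CPM at 2 weeks, and at 12 weeks 316, 190.2, 181, 682, 306 and 153 CPM in replicates 1 to 6. Adipoq, the gene of adiponectin, had 0 counts in replicates 3 and 6 and 18.5 CPM in replicate 4. The summed T and NK cell level in replicates 1 to 6 at 12 weeks was 63.2, 203, 46.3, 75.6, 70.2 and 61.7 CPM. A link between these sums and the adipocyte sums was not tested. The adipocyte call itself is thin: Cidec, a lipid droplet protein, had an edgeR adjusted p of 0.0212, Cfd (adipsin) of 0.0408, the fatty acid carrier Fabp4 of 0.0281 and Car3, a carbonic anhydrase, of 0.00274. Leaving out replicate 4 at 12 weeks left 1 of the 5, replicates 1 or 5 at 12 weeks or 1, 3, 4 or 6 at 2 weeks left 3, and replicates 2 or 5 at 2 weeks left 2.

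**Figure D3:**
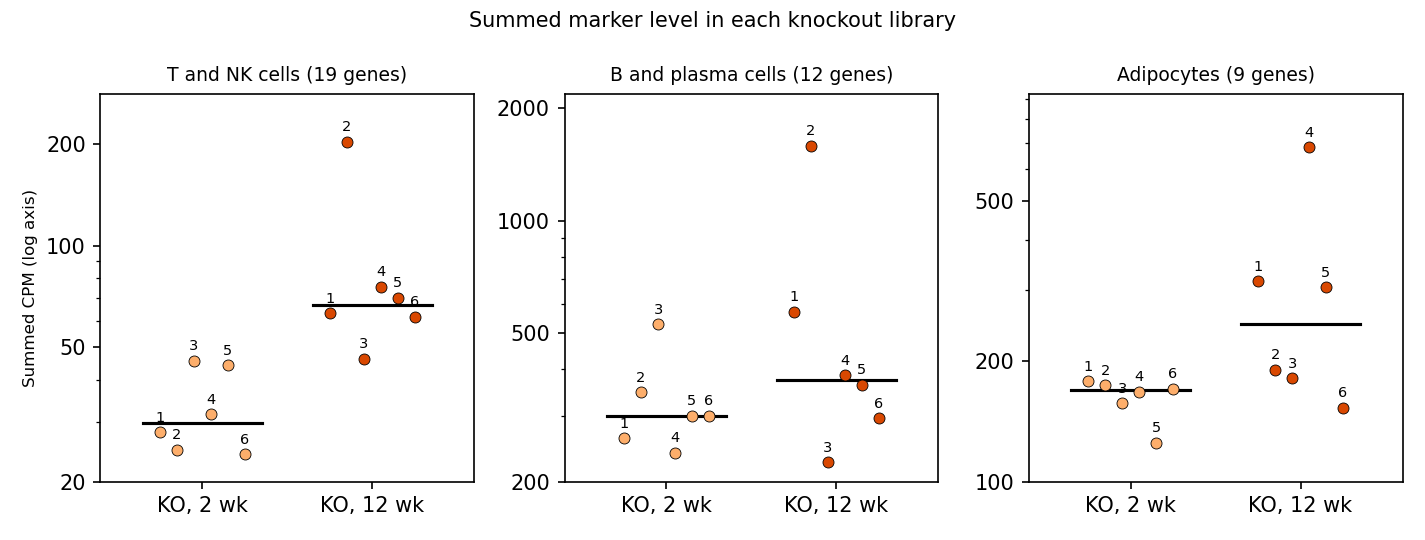
Each numbered point is 1 knockout library, and its height is the summed CPM of the tested genes of a marker list on a log axis, with the median as a bar. At 12 weeks replicate 2 holds 203 CPM of T and NK cell transcripts and 1591 CPM of B and plasma cell transcripts. Jchain alone measures 1106 CPM in that library. Replicate 4 holds 682 CPM of adipocyte transcripts.

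Macrophage and dendritic cell genes showed smaller changes, in wild type as well. Of 26 tested genes 8 rose and 1 fell in the knockout (median 0.39), and 9 rose in wild type (median 0.54). Without replicate 2 at 12 weeks 4 rose. Itgax, which encodes CD11c of dendritic cells and kidney macrophages, rose from 18.5, 21.9 and 29.3 CPM to 26.1, 34.7 and 52.7 CPM (0.65, SE 0.15, edgeR adjusted p = 0.00185), with 0.66 (SE 0.17) in wild type. Tyrobp, a signaling adaptor of myeloid and NK cells, rose by 0.82 (SE 0.20, edgeR adjusted p = 0.00222), and in wild type by 0.85 (SE 0.22). Ly6c2, a monocyte antigen with a near-identical neighbor, rose by 2.38 with replicate 2 and 1.49 without it (edgeR adjusted p = 0.00247 and 0.0114). The lipopolysaccharide coreceptor Cd14, which injured tubule cells also make, was the member that fell, from a median of 43.1 to 26.4 CPM (-0.71, SE 0.17, edgeR adjusted p = 0.00178).

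The general macrophage markers Adgre1 and Cd68 did not pass the test, and values of other such markers are not reported here. Adgre1 (F4/80) had medians of 24.9 and 25.2 CPM at 2 and 12 weeks (edgeR adjusted p = 0.230), and Cd68 of 12.7 and 14.4 CPM (adjusted p = 0.102). Of 10 tested genes of class II antigen presentation 2 rose in the knockout and 5 in wild type, beside 13.8% and 11.8% of all 9250 genes. The knockout count was 1 without replicate 2 and 4 without replicate 3 at 12 weeks, and 6 without replicate 3 at 2 weeks. H2-Ob, a class II chain of B cells and thymus, rose from between 2.41 and 4.53 CPM to between 6.32 and 31.1 CPM (1.73, SE 0.37, edgeR adjusted p = 0.000816), and H2-Aa by 0.56 (SE 0.17, edgeR adjusted p = 0.0133, and 0.0614 without replicate 2). The invariant chain Cd74 had medians of 918 and 782 CPM and did not pass (edgeR adjusted p = 0.712). Of 6 tested neutrophil genes 1 fell, near the 15.9% of all 9250 genes. It was S100a8, a calcium-binding alarmin, which went from between 1.92 and 4.56 CPM to between 0.403 and 1.97 CPM (-1.48, SE 0.44, edgeR adjusted p = 0.0117).

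Cytokine and chemokine genes split. Of 27 tested genes 8 rose and 6 fell in the knockout, while in wild type 8 rose and 0 fell. None passed the test of the difference between genotypes. Without replicate 4 at 12 weeks 3 fell in the knockout. Cxcl12, the homing signal for CXCR4-bearing leukocytes, rose from 73.5, 93.1 and 126 CPM to 151, 199 and 272 CPM without overlap (1.05, SE 0.12, edgeR adjusted p = 1.22e-07), and rose by 0.46 (SE 0.12) in wild type. Cxcl14 rose from a median of 22.6 to 64.4 CPM (1.34, SE 0.22, edgeR adjusted p = 6.71e-05), with 1.30 in wild type. Tnfsf13b, which encodes the B cell survival factor BAFF, rose from between 3.51 and 9.46 CPM to between 6.40 and 21.8 CPM (1.10, SE 0.26, edgeR adjusted p = 0.00193), and by 0.87 without replicate 2 (adjusted p = 0.00947).

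Complement genes also moved both ways, with 6 of 18 tested that rose and 5 that fell, against 5 and 2 in wild type. C7 rose from between 8.49 and 13.9 CPM to between 19.7 and 61.7 CPM (1.80, SE 0.25, edgeR adjusted p = 4.99e-06) and C6 by 1.32 (SE 0.36, edgeR adjusted p = 0.00610), both parts of the membrane attack complex. Both also rose in wild type, by 1.53 and 1.59. Factor I (Cfi), the protease that cleaves C3b, fell from a median of 42.7 to 16.3 CPM in the knockout (-1.26, SE 0.18, edgeR adjusted p = 4.77e-06) and was at most 2.83 CPM in wild type. C3 had medians of 424 and 295 CPM and did not pass (edgeR adjusted p = 0.366).

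Of 30 tested interferon-response genes 13 rose in the knockout and 3 in wild type (medians 0.48 and 0.31). None passed the test of the difference between genotypes, and 0 had an unadjusted p under 0.05 in it. The knockout count of 13 rests on single libraries: without replicate 2 at 12 weeks 3 rose and 1 fell, and without replicate 1 or 4 at 2 weeks 8 rose. Irf8, a transcription factor of myeloid and B cells, rose from a median of 30.8 to 52.5 CPM (0.87, SE 0.15, edgeR adjusted p = 8.41e-05; 0.70 and 0.000262 without replicate 2). The guanylate-binding protein Gbp4 rose by 0.85 (SE 0.21), the signal transducer Stat2 by 0.59 (SE 0.17) and the exonuclease Isg20 by 0.99 (SE 0.30), with edgeR adjusted p of 0.00319, 0.0105 and 0.0109. Isg20 lost its call without replicate 2 (adjusted p = 0.0812). Of 22 tested NF-kappa B and TNF genes 7 rose and 0 fell, and 7 rose and 1 fell in wild type.

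A minority of fibroblast and matrix genes rose. Of 23 tested genes 6 rose in the knockout (median 0.45), and 6 rose and 1 fell in wild type (median 0.65). The knockout count was 12 without replicate 3 at 2 weeks. Loxl1, which cross-links elastin, rose from 11.7, 16.7 and 27.1 CPM to 25.0, 39.7 and 45.6 CPM (1.02, SE 0.21, edgeR adjusted p = 0.000514). Pdgfrb, the growth factor receptor of pericytes and fibroblasts, rose by 0.75 (SE 0.20), the collagen chain Col6a1 by 1.03 (SE 0.28) and the proteoglycan biglycan (Bgn) by 0.77 (SE 0.22), with edgeR adjusted p of 0.00554, 0.00663 and 0.00800. The fibrillar collagens did not pass: Col1a1 ran from 91.2 to 313 CPM at 2 weeks and from 60.8 to 245 CPM at 12 weeks, and Col3a1 from 163 to 457 and from 159.8 to 478 CPM (edgeR adjusted p = 0.978 and 0.314). The myofibroblast actin Acta2 had medians of 34.0 and 44.1 CPM (edgeR adjusted p = 0.134). Of 16 tested TGF-beta and Wnt genes 4 rose in the knockout, and 6 rose and 2 fell in wild type. Those that rose in the knockout included the secreted Wnt modulator Dkk3, from between 13.4 and 31.6 CPM to between 34.9 and 76.6 CPM (1.31, SE 0.21, edgeR adjusted p = 2.93e-05), and Tgfb1 (0.59, SE 0.15, edgeR adjusted p = 0.00280).

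Genes of the distal nephron were lower at 12 weeks in both genotypes. In the knockout 4 of 8 tested genes of the thick ascending limb fell, 6 of 12 of the distal convoluted tubule, 7 of 9 of principal cells and 6 of 12 of intercalated cells, and none of these rose by edgeR's test. In wild type 7, 7, 6 and 5 fell, and 1 gene each of the distal convoluted tubule and of intercalated cells rose. The thiazide-sensitive cotransporter Slc12a3 fell from 1016, 1711 and 2017 CPM to 493, 791 and 1043 CPM (-1.07, SE 0.15, edgeR adjusted p = 2.99e-06); 2-week replicate 3 alone lay within the 12-week range. In wild type the change was -1.20 (SE 0.15). The calcium channel Trpv5 fell without overlap (-1.29, SE 0.14, edgeR adjusted p = 6.14e-08). So did Hsd11b2, the enzyme that shields the mineralocorticoid receptor from glucocorticoids (-0.80, SE 0.09, edgeR adjusted p = 8.76e-08). The potassium channel subunit Kcne1 fell from between 9.503 and 13.4 CPM to between 3.48 and 6.83 CPM (-1.03, SE 0.15, edgeR adjusted p = 2.89e-06), while in wild type it did not pass (-0.20, SE 0.14). The test of that difference missed the threshold (edgeR adjusted p = 0.0975). In intercalated cells the proton pump subunit Atp6v1b1 fell by 0.73 on the log2 scale (SE 0.09), the ammonia channel Rhcg by 0.79 (SE 0.10) and pendrin (Slc26a4) by 0.74 (SE 0.11), with edgeR adjusted p of 3.08e-07, 5.24e-07 and 3.05e-06.

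Glomerular podocyte genes rose instead, 6 of 9 tested in the knockout and 2 in wild type. None of the 9 passed the test of the difference between genotypes. Synaptopodin (Synpo), of the foot process cytoskeleton, rose from between 65.8 and 80.5 CPM to between 88.3 and 146 CPM (0.66, SE 0.12, edgeR adjusted p = 6.48e-05), and podocalyxin (Podxl) from between 167 and 210.0 CPM to between 227 and 360.0 CPM (0.58, SE 0.11, edgeR adjusted p = 0.000109). Both rose without overlap. Of 13 tested endothelial genes 4 rose in the knockout, and 5 rose and 1 fell in wild type. The tight junction protein Cldn5 rose by 0.72 in the knockout (SE 0.17, edgeR adjusted p = 0.00213). Leaving out replicate 4 or 5 at 12 weeks or 2, 4 or 5 at 2 weeks left 2 of the 4.

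Genes of fatty acid oxidation, the main fuel pathway of the proximal tubule, rose more often than they fell. Of 30 tested genes 12 rose and 2 fell in the knockout (median 0.18), and 1 rose and 4 fell in wild type (median 0.05). Without replicate 2 at 12 weeks 11 rose in the knockout. In the test of the difference between genotypes 1 of the 30 passed, with a more positive change in the knockout. Acaa2, a mitochondrial thiolase, rose by 0.45 (SE 0.10) and Ech1, an isomerase for unsaturated fatty acids, by 0.36 (SE 0.09), with edgeR adjusted p of 0.000983 and 0.00238. Of 18 tested sterol synthesis genes 6 fell and 0 rose, with 1 in each direction in wild type, and none passed the test of the difference. Squalene epoxidase (Sqle) fell by 0.66 on the log2 scale (SE 0.13, edgeR adjusted p = 0.000350). Among 10 tested genes of the mitochondrial genome 3 rose and 1 fell in each genotype. mt-Cytb, of respiratory complex III, rose from a median of 9364 to 19242 CPM (0.90, SE 0.14, edgeR adjusted p = 1.54e-05) and mt-Nd3, of complex I, fell from 23.9 to 15.3 CPM (-0.81, SE 0.21, edgeR adjusted p = 0.00430). Wild type gave 1.05 and -1.34.

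**Figure D4:**
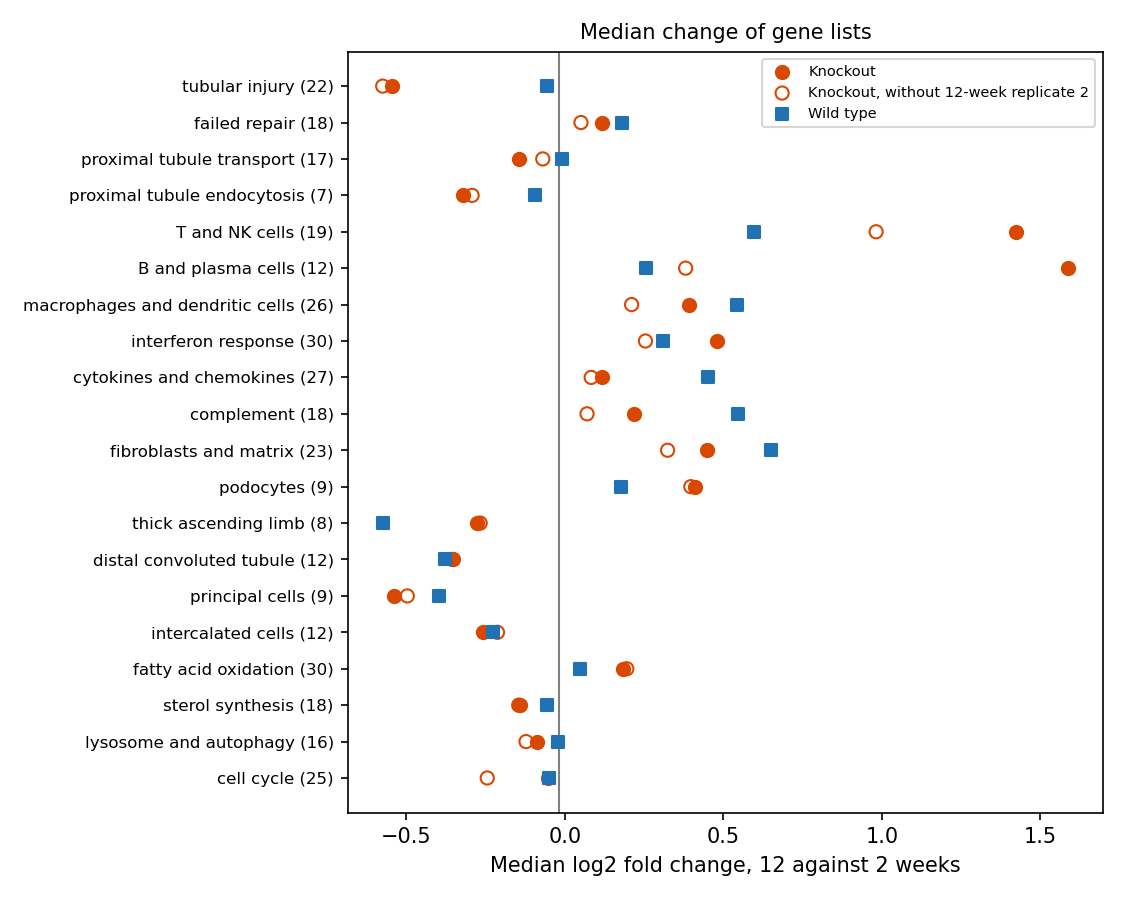
Each row is a gene list with the number of tested genes in brackets, and the horizontal axis is the median log2 fold change from 2 to 12 weeks; filled circles are the knockout, open circles the knockout without 12-week replicate 2, squares wild type and the vertical line the median of all 9250 genes in the knockout. Among the lists plotted, the injury and principal cell lists are lowest in the knockout at -0.54, T and B cell lists are highest at 1.42 and 1.59, and the B cell list drops to 0.38 without replicate 2.

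All 8 named genes with the largest falls fell in wild type too. Il4, the gene of interleukin 4, had 326 counts over the 6 knockout libraries at 2 weeks and 0 at 12 weeks, which makes it at least 70.1-fold lower against a floor of 3 counts over the group. It also had 0 counts in all wild-type libraries at 12 weeks, against 269 at 2 weeks. Ccdc27, a coiled-coil protein gene, had 320 counts at 2 weeks and 2 at 12 weeks in the knockout, and 498 and 0 in wild type. Asic1, an acid-sensing ion channel, fell from between 3.06 and 7.19 CPM to between 0.246 and 0.413 CPM (-4.05, SE 0.28, edgeR adjusted p = 3.49e-12), with -4.83 in wild type. Fat2, a cadherin (-3.57, -5.06 in wild type), the histamine-making Hdc (-2.88, -4.09), the fatty acid hydroxylase Cyp4a32 (-2.86, -4.02), which shares sequence with its cluster neighbors, and the lectin Clec1b (-2.82, -2.58) fell in both genotypes. Cep85, of the centrosome, fell from 153, 312 and 443 CPM to 22.3, 34.1 and 49.9 CPM (-3.18, SE 0.39, edgeR adjusted p = 1.49e-06), and wild type gave -1.46 (SE 0.37). Of these 8, Asic1, Cep85, Cyp4a32 and Il4 have an annotated gene on the opposite strand within 5 kb, as do 4641 of the 9250 genes.

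Among the genes with the largest rises, Lars2, the mitochondrial leucyl-tRNA synthetase, went from 124, 181 and 196 CPM to 702, 1426 and 2848 CPM (3.25, SE 0.33, edgeR adjusted p = 6.64e-08). It rose in wild type too (3.50, SE 0.33), where Gm42418 also went from 0 counts to 86843 to 401812. Gabrp, a subunit of the GABA-A receptor found in epithelia, rose from between 0.232 and 1.48 CPM to between 1.72 and 13.8 CPM (2.97, SE 0.45, edgeR adjusted p = 1.36e-05), while no wild-type library exceeded 0.310 CPM. The test of the genotype difference for Gabrp missed the threshold (edgeR adjusted p = 0.0975). Il9r, the interleukin 9 receptor, rose by 4.08 (SE 0.77) with replicate 2 and 2.64 without it, the calcium channel Cacna1e by 2.41 and 1.502, the B cell lectin Siglecg by 2.35 and 1.57, lysozyme Lyz1, near-identical to Lyz2, by 2.63 and 1.95, and the class II chain H2-Eb2 by 2.80 and 1.75. In all 5 replicate 2 was the highest library, at 14.7, 15.9, 19.4, 22.9 and 10.2 CPM, and all 5 still passed the test without it. Fam180a rose from between 0.213 and 0.634 CPM to between 0.902 and 2.90 CPM (2.33, SE 0.48, edgeR adjusted p = 0.000427). Of these 8, Fam180a, H2-Eb2 and Il9r have an annotated gene on the opposite strand within 5 kb.

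Of the 11 genes whose change differed between genotypes, all 5 with a more negative change in the knockout have an annotated gene on the opposite strand within 5 kb. So do 4 of the 6 with a more positive change, and 4641 of all 9250 genes. Of the 11, 5 also changed in the knockout. Slc13a1, the sodium-sulfate cotransporter of the proximal tubule (chr6:24088283-24168092 on mm10), measured 509.7, 705 and 769.8 CPM at 2 weeks and 302, 401 and 537 CPM at 12 weeks in the knockout. It fell there (-0.70, SE 0.13, edgeR adjusted p = 0.000116) and rose in wild type, from between 168 and 263 CPM to between 269 and 382 CPM (0.43, SE 0.13, edgeR adjusted p = 0.0110). The difference was -1.13 (SE 0.18, edgeR adjusted p = 0.00292). In the knockout the groups overlapped by 2-week replicate 3 and 12-week replicate 3. The knockout median lay above the wild-type median by less at 12 weeks (401 against 289.6 CPM) than at 2 weeks (705 against 242 CPM).

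Acot1, a cytosolic acyl-CoA thioesterase and PPAR-alpha target (chr12:84009490-84018371), rose from between 38.1 and 54.8 CPM to between 82.6 and 107 CPM in the knockout without overlap (1.00, SE 0.11, edgeR adjusted p = 2.92e-08). Wild type held 61.2 to 76.4 CPM at 2 weeks and 49.0 to 83.9 CPM at 12 weeks (0.07, SE 0.11), and the difference was 0.93 (SE 0.15, edgeR adjusted p = 0.00292). Its near-identical paralog Acot2 can share its reads. Ppp4r4, a phosphatase regulatory subunit, fell from a median of 9.92 to 5.19 CPM, Igsf5, a junction protein, from 37.4 to 24.4 CPM, and Sptlc2, a subunit of the first enzyme of sphingolipid synthesis, from 139 to 110.4 CPM. All 3 fell without overlap in the knockout and did not pass in wild type, with edgeR adjusted p of the difference of 0.0445, 0.0143 and 0.0203. The call of Ppp4r4 in that test was lost without any 1 of 18 libraries and that of Sptlc2 without any 1 of 4.

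The other 6, named after their values were seen, changed in wild type and did not pass in the knockout. Coch, a secreted matrix protein, had medians of 2.499 and 4.86 CPM in the knockout and 10.9 and 1.77 CPM in wild type, where it fell (-2.57, SE 0.39, edgeR adjusted p = 1.35e-05). Oit1 (-2.27), the transcription factor Nfe2l3 (-2.59), the vesicle protein Sytl2 (-0.75) and the microtubule crosslinker Mtcl1 (-0.68) likewise fell in wild type, and Spata6 rose (0.48). Their changes in the knockout were 0.56, -0.27, 0.07, 0.09 and -0.11.

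**Figure D5:**
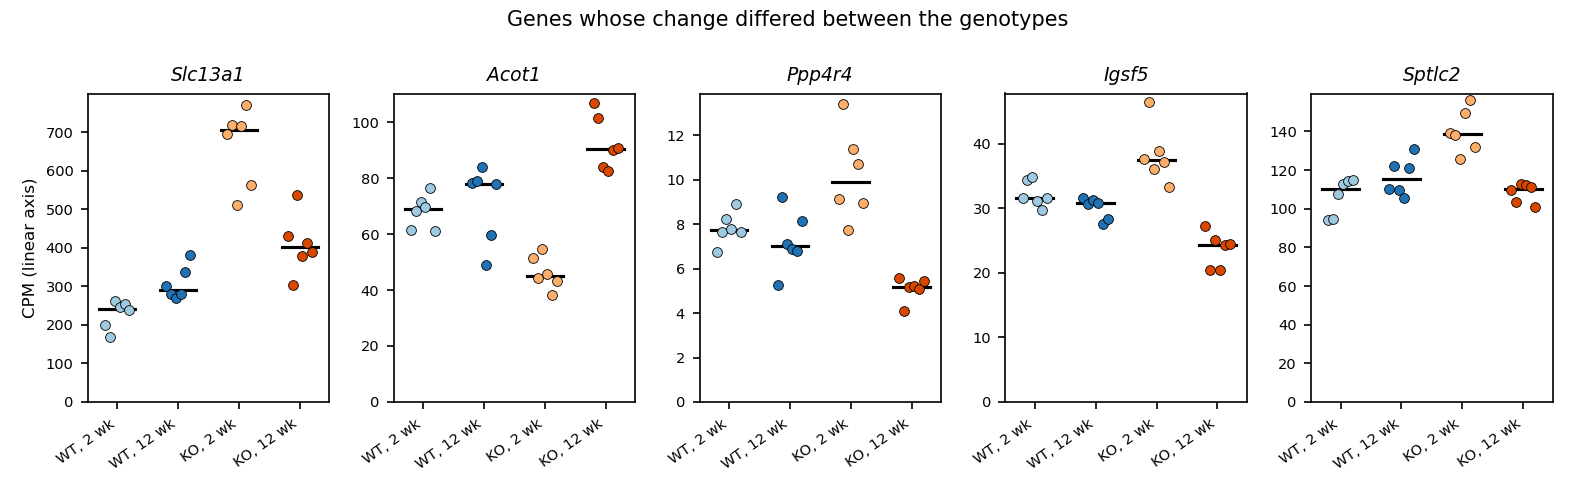
Each point is the CPM of 1 library on a linear axis from 0 and each bar the median of 6, for the 5 genes that changed in the knockout and differed in their change from wild type. Slc13a1 falls in the knockout from a median of 705 to 401 CPM while it rises in wild type, and Acot1 rises in the knockout from 45.1 to 90.3 CPM.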

How the data were processed

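Whole-kidney RNA, extracted with a Maxwell RSC simplyRNA kit and made into libraries with an NEBNext Ultra kit per the labels' protocols, was deposited by the authors as raw read counts per gene. Per the submitters' processing notes the tools were fastp, STAR 2.5 and HTSeq 0.6.1 on mm10. These sources do not state how the counting treated strand or which annotation release it used. Opposite-strand genes were found with GENCODE M21, and genes with one across their exons were tested but not counted or named. A negative binomial quasi-likelihood model with 4 group means was fitted to all 24 libraries in edgeR 4.0.16 (R 4.3.3) with TMM scaling and robust estimation, after filterByExpr with a minimum count of 10 and a minimum total of 15, which kept 17286 genes. Contrasts were 12 minus 2 weeks in each genotype and their difference, with Benjamini-Hochberg adjustment over all tested genes and a threshold of 0.05. Alternatives included DESeq2 1.42.0, other scalings and filters, a replicate block, fits without each library and, chosen after seeing the data, a rule of no opposite-strand gene within 5 kb. Named genes are the 8 largest non-overlapping changes in each direction with a mean of at least 1 CPM, up to 6 genotype-dependent genes in each direction that also changed in the knockout, up to 4 called members per list, and a set of standard markers. Of those markers, Vcam1, Cd3e, Ms4a1, Fn1, Slc34a1 and Slc5a2 have an opposite-strand gene, Cxcl13 had too few counts and Xist is noncoding. Some list members are counted in their lists but their values are not reported here. The members and all gene lists were chosen with earlier results of these data known. Correlations of deviations between equally numbered libraries ran from -0.354 to 0.0803 in the knockout and from -0.108 to 0.172 in wild type. These values cannot settle whether replicate numbers pair the libraries, and the main fit used no pairing. The scripts were tested on simulated data, and promoters came from a RefSeq table of GRCm38.p6. With 11327983 to 25184468 counts per knockout library, genes with few counts carry the widest errors.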

Additional observations from a re-analysis of the deposited data

Results flagged for a closer look

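Among 246 groups of 6 knockout libraries, each the values of 1 named gene at 1 duration, 39 held a library far from the other 5 by Dixon's criterion. The criterion flags about 5% of groups of independent, normally distributed values. CPM of genes measured in the same libraries need not be such values, so no comparison with chance is drawn. Replicate 2 at 12 weeks was the library far from the other 5 in 22, as the highest in 20 and the lowest in 2. Its high CPM levels for B and T cell genes were Cd79a (40.5), Blk (10.8), Fcmr (5.72), Siglecg (19.4), Jchain (1106), H2-Ob (31.1), H2-Eb2 (10.2), Cd6 (13.6), Cd2 (14.97), Cd5 (12.0), Il7r (19.6), Il9r (14.7), Ccl5 (11.6) and Ltb (31.9). It was also highest in CPM for Ly6c2 (31.2), Lyz1 (22.9), Gbp4 (42.6), Isg20 (10.6), Cacna1e (15.9) and Mki67 (53.5), and lowest for Ppp4r4 (4.11) and Sprr2f (0.242). The libraries' B cell sums and the counts without it stand beside the lymphocyte results, and the part of any other difference of that library was not tested. 

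The remaining 17 were spread over 9 libraries. At 2 weeks, replicate 6 was lowest for Spp1 at 4588 CPM and for C3 at 227 CPM. Replicate 5 was lowest for Amn at 72.1 CPM and Ech1 at 256 CPM and highest for Gbp4 at 18.8 CPM. Replicate 3 was highest for Jchain at 300.4 CPM and lowest for Slc12a3 at 1016 CPM. Replicate 2 was highest for Spata6 at 33.7 CPM, mt-Cytb at 15943 CPM and Car3 at 30.4 CPM, and replicate 1 for mt-Nd3 at 50.4 CPM. At 12 weeks, replicate 4 was lowest for Ctns at 20.8 CPM and highest for Cfd at 113 CPM. Replicate 6 was highest for Slc22a7 at 99.8 CPM and lowest for Kcne1 at 3.48 CPM, replicate 5 was highest for Mtcl1 at 17.2 CPM and replicate 3 for Atg7 at 21.1 CPM.

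The change from 2 to 12 weeks differed between genotypes for 11 genes by edgeR's test of the difference. On the log2 scale the knockout change minus the wild-type change was -1.13 for Slc13a1, -0.89 for Ppp4r4, -0.59 for Igsf5, -0.58 for Spata6 and -0.50 for Sptlc2. It was 3.37 for Coch, 2.83 for Oit1, 2.31 for Nfe2l3, 0.93 for Acot1, 0.82 for Sytl2 and 0.77 for Mtcl1. Slc13a1, Igsf5, Acot1, Coch, Oit1 and Sytl2 kept the call without any 1 of the 24 libraries. Ppp4r4 lost it without any 1 of 18, Mtcl1 of 17, Nfe2l3 and Spata6 of 13 and Sptlc2 of 4 libraries.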

How the results depend on the processing

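The knockout counts of 1280 genes that rose and 1469 that fell were 308 and 136 with a log2 change of at least 1, and 727 and 681 over the 4609 genes with no opposite-strand gene within 5 kb, which is fewer genes by construction (30.5% called). Wild type gave 131 and 176, and 607 and 576, under these rules, and 708 genes that rose without a filter on low counts, where the cause was not tested. For the genotype difference, 3 and 1 genes passed with the minimum change, 2 and 0 under the 5 kb rule, 42 and 39 with DESeq2, 3 with a more negative change when only the 9250 genes were fitted, and 2 such genes without the filter. In knockout-only fits 989 rose and 1282 fell. With 1 library left out, 953 to 1357 genes rose (953 without replicate 2 at 12 weeks) and 1290 to 1530 fell in the knockout, and 867 to 1043 rose and 1035 to 1197 fell in wild type. The genotype difference gave 4 to 14 genes with a more positive change (14 without knockout 12-week replicate 3, 11 without replicate 4, 4 without replicate 5) and 2 to 15 with a more negative one. Of the latter there were 15 without knockout 12-week replicate 3 and 12 without 2-week replicate 6. There were 2 or 3 without knockout 12-week replicates 2 or 6, 2-week replicates 1, 2, 4 or 5, or wild-type 12-week replicates 2 or 6. The replicate block, for numbers not known to pair the libraries, gave 1180 and 1406 in the knockout, 1038 and 1203 in wild type and 6 and 6 for the difference. With the knockout-only fit 3 B cell and 5 interferon genes rose, and Stat2 lost its call. Of 103 named genes called in the knockout, 57 lost that call under at least 1 alternative and 10 lost it with 1 library left out. Most of the 57 lost it only to the minimum log2 change of 1, which their smaller changes cannot pass. In the other alternative fits that kept all libraries, Havcr1, Cfd, Cidec, Fabp4 and Stat2 lost it. The 10 were Blk, Cd79a, Fcmr, H2-Aa and Isg20 without 12-week replicate 2, Slc22a7 without 2 or 4, Cidec without 4, and Havcr1, Cfd and Fabp4 without any 1 of 7, 9 and 5. Coch without 12-week replicates 1 or 3, Oit1 without 2-week replicate 3, Jchain without replicate 3 of either duration, and Adipoq without 12-week replicates 3 or 6 or without sex-chromosome and receptor segment genes gained a knockout call. Genes that changed sign were not called: Sytl2 gave -0.00352 to -0.0258 without 12-week replicates 2 or 5 (leave-one-out range -0.0258 to 0.131), Mtcl1 -0.0236 without 5 (to 0.139), Lrp2 0.0643 without 2-week replicate 2 (from -0.254), Slc22a6 0.000256 and 0.00805 (from -0.112), Mki67 -0.133 (to 0.388), and Col1a1 0.0129 in the fit of the 9250 genes, 0.0587 with the block and -0.176 to 0.257 with 1 library left out.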

Other observations

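Other gene groups were measured in the knockout between 2 and 12 weeks, where 13.8% of all 9250 genes rose and 15.9% fell. Of 12 tested genes of vitamin D, phosphate and calcium handling 4 fell and 0 rose by edgeR's test, and 4 fell in wild type. The phosphate transporter Slc34a2 fell from between 18.3 and 37.8 CPM to between 10.55 and 20.02 CPM (-1.04, SE 0.19, edgeR adjusted p = 9.67e-05), and klotho (Kl), the coreceptor of the phosphate-lowering hormone FGF23, from a median of 517 to 391 CPM (-0.46, SE 0.13, edgeR adjusted p = 0.00708). Of 16 tested lipogenesis genes 4 fell in the knockout (3 without replicate 2 at 12 weeks, and a list median of -0.03) and 7 in wild type. Abcg1, which exports cholesterol from cells, rose without overlap from between 10.9 and 16.7 CPM to between 17.4 and 35.6 CPM (0.70, SE 0.19, edgeR adjusted p = 0.00625).

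Of 20 tested immediate early and heat shock genes 2 rose and 3 fell in the knockout, and 4 rose and 3 fell in wild type. Of 17 tested genes of the unfolded protein and integrated stress responses 1 rose and 3 fell, and without replicate 2 at 12 weeks 0 rose and 5 fell. With all libraries these knockout counts lie near or under the shares of all genes, and the 2 that rose were 1 without any 1 of 5 libraries. The transcription factor Klf4 rose from between 7.70 and 13.8 CPM to between 18.1 and 28.2 CPM (0.94, SE 0.16, edgeR adjusted p = 3.18e-05), while the small heat shock protein Hspb1 fell from a median of 36.7 to 23.1 CPM (-0.74, SE 0.18, edgeR adjusted p = 0.00246) and the endoplasmic reticulum chaperone Hyou1 from 114 to 86.4 CPM (-0.50, SE 0.11, edgeR adjusted p = 0.000579). Of 18 tested genes that differ between male and female kidneys 6 fell and 3 rose in the knockout, and 1 rose in wild type. None of the 18 passed the test of the difference between genotypes. The 6 that fell changed by -0.37 to -0.75 on the log2 scale. Their number was 3 without replicate 2, 4 or 5 at 12 weeks and 2 without replicate 2 at 2 weeks, and the 3 that rose were also 3 without replicate 2 at 12 weeks. The prolactin receptor Prlr rose from between 6.63 and 29.3 CPM to between 24.6 and 72.2 CPM (1.48, SE 0.32, edgeR adjusted p = 0.00106), and Cyp4a14, a fatty acid hydroxylase and PPAR-alpha target with close paralogs, from a median of 30.4 to 129.7 CPM (1.82, SE 0.43, edgeR adjusted p = 0.00244).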
